A study of Mus musculus with 6 samples.

Results

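The 37 genes of the mouse mitochondrial genome were followed across 6 libraries of brown fat from cold-exposed mice. They were chosen as every gene of the deposited table whose Ensembl identifier lies on the mitochondrial chromosome, and they make up 37 of 54385 genes: 13 messenger RNAs (mRNAs), 2 ribosomal RNAs (rRNAs) and 22 transfer RNAs (tRNAs). The group named AdKO here held 3 libraries from C57BL/6N mice of genotype Adcy3-FL/FL/Adipoq-wt/cre, and the group named WT held 3 libraries of genotype Adcy3-FL/FL/Adipoq-wt/wt. Both groups therefore carry the floxed Adcy3 alleles, and they differ by the Cre transgene. Adipoq-Cre acts in adipocytes, so other cells of the tissue keep Adcy3, the adenylyl cyclase that makes cyclic AMP. All mice ate chow (Ssniff V1554) for 20 weeks and were kept at 5 °C for 24 h before interscapular brown adipose tissue was taken. The series' design text names the inguinal depot, an age of 20 weeks and quadruplicates instead, so the sample labels were followed for tissue and number. The labels number the replicates and do not say that each is a separate mouse, so every p-value here rests on the spread among these libraries, part of which may be technical.

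Mitochondrial DNA is a small circle that is transcribed from both strands into long precursors. The tRNAs lie between most of the mRNAs and rRNAs, and the ends of the longer RNAs are made by cutting the tRNAs out. The 13 mRNAs encode core subunits of respiratory complexes I, III and IV and of ATP synthase (complex V), all other subunits being encoded in the nucleus. Brown adipocytes are packed with mitochondria, which burn fuel for heat in the cold. Poly(A) tails are added to most of these mRNAs, and in several of them the tail completes the stop codon.

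The sequences that carry these layout features are shown 5′ to 3′ from GENCODE vM21 transcripts on GRCm38, with positions on the mitochondrial chromosome (M). In the DNA alphabet 3 of the 13 mRNAs (mt-Co3, mt-Nd4 and mt-Cytb) end in a lone T, in capitals below, and the other 10 end in a complete stop codon, as does mt-Co1, whose stop codon is in capitals for comparison.
mt-Co3, M:9351-9390, plus strand: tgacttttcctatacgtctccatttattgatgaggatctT
mt-Nd4, M:11505-11544, plus strand: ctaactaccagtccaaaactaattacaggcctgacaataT
mt-Cytb, M:15249-15288, plus strand: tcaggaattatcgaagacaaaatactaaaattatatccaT
mt-Co1, M:6833-6872, plus strand: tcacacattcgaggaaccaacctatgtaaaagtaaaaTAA

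Some reading frames share bases, which makes reads over the shared stretch ambiguous between genes. The capitals below mark the shared bases: 43 bases of mt-Atp8 (21.1% of that gene) also belong to mt-Atp6, 7 bases of mt-Nd4l also belong to mt-Nd4, and the last 14 bases of mt-Nd5 lie opposite the last 14 bases of mt-Nd6 on the other strand.
mt-Atp8, M:7910-7969, plus strand: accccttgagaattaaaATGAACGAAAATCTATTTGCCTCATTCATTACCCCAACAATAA
mt-Nd4l, M:10134-10173, plus strand: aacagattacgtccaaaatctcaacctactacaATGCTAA
mt-Nd5, M:13526-13565, plus strand: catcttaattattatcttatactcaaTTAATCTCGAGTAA
mt-Nd6, M:13552-13591, minus strand: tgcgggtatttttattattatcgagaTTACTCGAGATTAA

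The 3 tRNAs between mt-Nd4 and mt-Nd5 are shown because each of them was higher in every AdKO library than in every WT library. They carry histidine (mt-Th), serine (mt-Ts2) and leucine (mt-Tl2), and the capitals mark the anticodon, found as GTG, GCT and TAG within bases 20 to 40.
mt-Th, M:11546-11612, plus strand: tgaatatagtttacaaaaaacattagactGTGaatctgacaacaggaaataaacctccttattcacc
mt-Ts2, M:11613-11671, plus strand: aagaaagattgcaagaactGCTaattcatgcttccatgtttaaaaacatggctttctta
mt-Tl2, M:11671-11741, plus strand: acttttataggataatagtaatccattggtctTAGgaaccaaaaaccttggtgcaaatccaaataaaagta

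Parts of the mitochondrial genome also exist as copies in nuclear chromosomes, and these sequences bear on how reads were shared out. Gm28661, an unprocessed pseudogene on chromosome 1, matches 681 of the 684 bases of mt-Co2 at 100% identity, so the stretch shown reads the same in both. Gm29216 matches 483 bases of mt-Co1 at 99.8% identity with the substitution A1066T (mt-Co1 base first, counted from base 1 of mt-Co1), in capitals below.
mt-Co2, M:7654-7693, plus strand: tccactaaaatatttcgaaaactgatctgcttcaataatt
Gm28661, chr1:24614885-24614924, minus strand: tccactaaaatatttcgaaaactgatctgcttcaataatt
mt-Co1, M:6390-6429, plus strand: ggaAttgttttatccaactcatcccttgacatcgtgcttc
Gm29216, chr1:24616149-24616188, minus strand: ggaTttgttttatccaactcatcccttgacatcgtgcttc

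Libraries held 15575196, 15599384 and 17538044 estimated counts in AdKO and 16563277, 17315577 and 13956786 in WT. Adcy3, the deleted gene, checked the labels: it had 21.9, 30.3 and 24.1 counts per 1000000 (CPM) in the AdKO libraries, against 134.6, 169.2 and 158.0 CPM in the WT libraries, with no overlap (log2 fold change -2.60 ± 0.17 SE, edgeR adjusted p = 0.00146). The table's entry ENSMUSG66666620654, which no annotation used here names, was low in the same libraries, at 42.6, 48.8 and 66.1 CPM in AdKO and 287.6, 336.2 and 245.5 CPM in WT. All 10 brown adipocyte markers had a mean in AdKO that was not below that in WT, and their summed share was 0.982% to 1.05% of counts in AdKO and 0.811% to 0.891% in WT. Skeletal muscle markers moved the other way: all 20 had a lower mean in AdKO, with a summed share of 0.969%, 0.0726% and 0.00998% in the 3 AdKO libraries against 2.28%, 2.05% and 1.73% in the WT libraries, and no marker was at 0 in any library. Muscle is also rich in mitochondria, so values with each library's muscle marker share as a covariate are given beside some of the results. That share separated the genotypes, so the effects of muscle share and of genotype cannot be cleanly told apart in that fit. Within AdKO the share differed mainly by the first library. SEs were larger too, as for mt-Nd5, at 0.376 with the covariate and 0.146 without it. Fibroblast markers (5 of 5), macrophage markers (8 of 8) and white adipocyte markers (8 of 9) also had lower means in AdKO, with summed shares of 0.0592% of counts or less in every library; their part in the results was not tested. In bulk tissue, fewer cells of a type and less RNA per cell cannot be told apart.

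Mitochondrial RNAs took a large and similar part of every library. They made up 26.0%, 25.7% and 27.8% of counts in the AdKO libraries and 26.2%, 25.7% and 23.3% in the WT libraries, or 26.5% ± 1.13 and 25.1% ± 1.55 (SD, n = 3 each). The groups overlapped (two-sided exact permutation p = 0.4, where 0.1 is the smallest that 3 against 3 allows). With the counts of the chromosome 1 copies described below added, the groups still overlapped. The difference was then 1.86 percentage points (p = 0.2 by the same exact test), against 1.48 without the copies. With the muscle markers left out of the total, the difference was 1.06 percentage points (p = 0.5 by the same exact test), against 1.48 with them. The difference also depended on single libraries: it was 0.603 without the third WT library and 0.838 without the third AdKO library. The 95% exact binomial interval of the share in the first AdKO library ran from 26.02% to 26.06%, and intervals of this kind cover counting error only. mt-Co1, the catalytic core of cytochrome oxidase (complex IV), was the most abundant gene in all 6 libraries, and 8 of the 10 and 12 of the 20 most abundant genes were mitochondrial in each of them. The rRNAs made up 15.5% ± 0.618 of mitochondrial counts in AdKO and 15.4% ± 1.07 in WT, although the libraries were made from poly(A) RNA. The tRNAs made up 0.346%, 0.288% and 0.310% of mitochondrial counts in the AdKO libraries, against 0.274%, 0.270% and 0.301% in the WT libraries.

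Levels were compared between genes per kilobase of gene. In AdKO mt-Atp6 was highest at 39624 CPM per kilobase and mt-Nd5 lowest at 6946 among the mRNAs and rRNAs. In WT mt-Atp8 was highest at 33363 and mt-Rnr1 lowest at 6409 CPM per kilobase. In both groups the same broad order held: the ATP synthase subunits mt-Atp6 and mt-Atp8 and the complex IV subunit mt-Co1 led, the other complex IV subunits mt-Co2 and mt-Co3, the large-subunit rRNA mt-Rnr2 and the complex III subunit mt-Cytb followed, and the complex I subunits came after them, mt-Nd1 leading, with mt-Rnr1 near or at the bottom. Most neighbours in this order did not differ beyond their spread. In WT the values separated only between mt-Atp6 and mt-Co3, between mt-Nd1 and mt-Nd2 and between mt-Nd4 and mt-Nd4l. In AdKO they separated between mt-Co1 and mt-Co2 and at each step from mt-Nd1 through mt-Nd2, mt-Nd4, mt-Nd3 and mt-Nd4l.

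**Figure D1:**
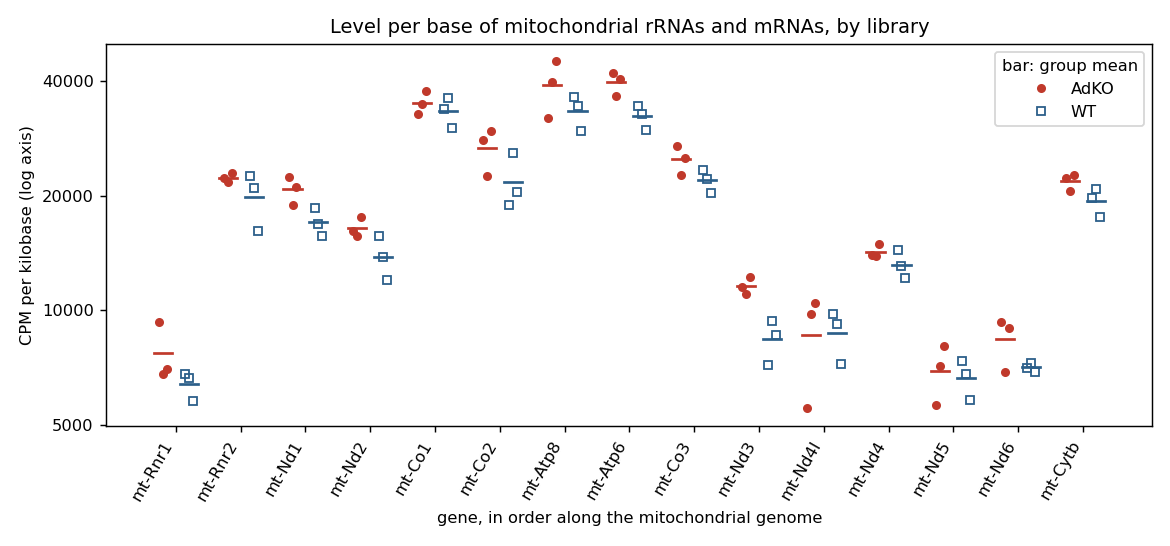
Level of the 2 rRNAs and 13 mRNAs in CPM per kilobase (log axis), by gene in genome order; points are libraries, bars are group means, AdKO left of WT. The spread runs from 39624 CPM per kilobase for mt-Atp6 to 6946 for mt-Nd5 in AdKO, and most genes' AdKO and WT points overlap.

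Ratios between neighbouring genes differed from pair to pair. The small-subunit rRNA mt-Rnr1 had 0.420, 0.314 and 0.305 times the per-base level of mt-Rnr2 in the AdKO libraries, against 0.302, 0.318 and 0.358 in the WT libraries. mt-Atp8 and mt-Atp6, which overlap, were near equal in all but 1 library: their per-base ratio was 0.763, 1.09 and 1.11 in AdKO and 1.06, 1.05 and 0.998 in WT. mt-Nd4l stood below mt-Nd4 in counts per base, with a ratio of 0.397, 0.703 and 0.701 in AdKO and 0.682, 0.704 and 0.597 in WT. In both pairs the genes share bases, and full lengths were used for the short genes, 204 bases for mt-Atp8 and 297 for mt-Nd4l. Whether these ratios show RNA levels or how reads were assigned was not tested. Of the mRNA counts, complex V subunits took 15.31%, 14.96% and 14.93% in the AdKO libraries and 14.43%, 13.67% and 14.11% in the WT libraries, so all AdKO libraries lay above all WT libraries (exact permutation p = 0.1, the smallest possible, and 0.907 after Benjamini-Hochberg adjustment over 17 values). With the counts of the chromosome 1 copies described below added to their genes, the groups nearly touched. The complex V shares were then 14.69%, 14.5% and 14.33% in AdKO and 14.32%, 13.46% and 13.64% in WT. Complexes I and III took 34.6% ± 0.475 and 10.8% ± 0.297 in AdKO against 34.3% ± 1.44 and 10.8% ± 0.258 in WT (SD, n = 3 each). Complex IV took 39.6% ± 0.140 in AdKO and 40.8% ± 1.56 in WT, and mt-Nd6, the only mRNA on the minus strand, took 1.88% ± 0.243 in AdKO and 1.80% ± 0.106 in WT. None of these differences could pass an adjusted threshold of 0.05, because 0.1 is the smallest p that 3 against 3 allows.

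The nuclear copies changed some of these levels. Of 17 nuclear transcripts that matched the mitochondrial genome at 90% identity or more over 100 bases or more, 8 had a summed count of at least 100. The largest counts sat on chromosome 1, where 7 pseudogenes on the minus strand between chr1:24611535 and chr1:24616197 (a span of 4663 bases) match mt-Co1, mt-Co2, mt-Atp6, mt-Co3, mt-Nd3, mt-Nd4l and mt-Nd4. The copy of mt-Nd4l, Gm10222, had 0 counts in all 6 libraries. Together they held 2.07%, 1.41% and 1.06% of counts in the AdKO libraries and 1.61%, 0.715% and 1.09% in the WT libraries. Gm28661, identical to mt-Co2 over nearly its whole length, was given 41.3%, 43.1% and 30.2% of the summed mt-Co2 and Gm28661 counts in AdKO and 46.1%, 23.4% and 38.6% in WT. Their identity means that reads from either place cannot be told apart by sequence. The copies of mt-Co1 and mt-Nd4 varied more between libraries. Gm29216 had 75561, 53.9 and 48.2 counts in the AdKO libraries and 13773, 0 and 0 in the WT libraries. Gm28439 (mt-Nd4) had 0, 17352 and 20856 counts in AdKO and 652.3, 15928 and 3465 in WT. Gm10925 was given 5.88%, 4.15% and 0.446% of the summed mt-Atp6 counts in AdKO and 7.90%, 2.19% and 2.53% in WT. Gm28438 was given 26.8%, 9.50% and 17.1% of the summed mt-Nd3 counts in AdKO and 41.2%, 5.41% and 11.9% in WT. In both cases the first WT library gave its copy the largest share. Gm28437 held at most 1.21% of the summed mt-Co3 counts in any library, and Gm13340 and Gm13341, on chromosome 2, had counts that summed to 447.9 and 146.4 over all libraries.

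**Figure D2:**
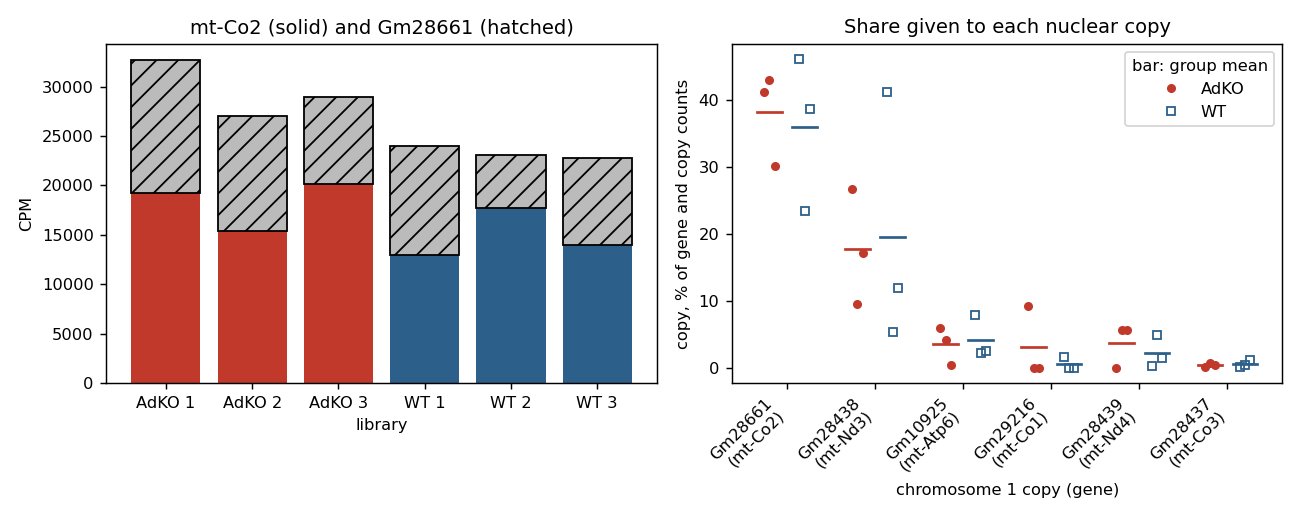
Left, CPM of mt-Co2 (solid) and of its chromosome 1 copy Gm28661 (hatched) stacked by library, AdKO left of WT; right, percent of the summed gene and copy counts given to each copy, with libraries as points. The stacked mt-Co2 bars are 32676, 26989 and 28901 CPM in AdKO and 24036, 23078 and 22801 CPM in WT.

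Adding the copy to the gene made mt-Co2 steadier. mt-Co2 alone had 19186, 15367 and 20167 CPM in the AdKO libraries and 12948, 17669 and 13991 CPM in the WT libraries, with overlap (log2 fold change 0.29, edgeR adjusted p = 0.535). With Gm28661 added, it had 32676, 26989 and 28901 CPM in AdKO and 24036, 23078 and 22801 CPM in WT. The coefficient of variation was then 9.80% in AdKO and 2.78% in WT, against 13.9% and 16.7% for the gene alone, and all AdKO libraries lay above all WT libraries (log2 fold change 0.34 ± 0.09 SE, edgeR adjusted p = 0.223). This sum, chosen after the data were seen, also moved mt-Co2 up the order: its level of 43161 ± 4230 CPM per kilobase in AdKO was then the highest mean of all members, as was its 34072 ± 947.1 in WT, where mt-Atp6 with its copy had 33728 ± 3403 and mt-Co1 with its copy 33417 ± 3063 (SD, n = 3 each), within the spread of these genes. The per-base ratio of mt-Co2 to mt-Co1 became 1.33, 1.13 and 1.13 in the AdKO libraries and 1.03, 0.938 and 1.11 in the WT libraries, against 0.859, 0.644 and 0.786 in AdKO and 0.561, 0.719 and 0.682 in WT without the copies. For mt-Nd3 the sum gave groups that just overlapped (log2 fold change 0.42, edgeR adjusted p = 0.323). For mt-Atp6 the sum gave a log2 fold change of 0.29 (edgeR adjusted p = 0.368) with no overlap. The coefficient of variation of mt-Atp6 was larger with its copy than without in both groups (8.09% against 7.22% in AdKO, 10.1% against 7.30% in WT), and that of mt-Nd3 was larger in AdKO (12.8% against 5.35%) and similar in WT (12.7% against 13.5%).

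None of the members passed the test between genotypes. Of the 37, 34 had enough counts to be tested among 14767 genes; mt-Tv, mt-Td and mt-Tk, at 13.4 counts or fewer in any library, did not. With edgeR's quasi-likelihood test, 0 were higher and 0 lower in AdKO at adjusted p under 0.05, where 0.0609% of all tested genes were called (0.0271% higher and 0.0339% lower). At unadjusted p under 0.05, 7 members were higher (mt-Nd1, mt-Nd3, mt-Atp6, mt-Tm, mt-Th, mt-Ts2 and mt-Tl2) and 0 lower, against 2.87% and 7.60% of all tested genes. DESeq2 called 3 of them higher, mt-Nd3 (adjusted p = 0.0409), mt-Th (8.006e-06) and mt-Ts2 (0.0399), and limma-voom called 0. Over all tested genes DESeq2 called 0.21% higher and 1.87% lower, and limma-voom 0.0406% higher and 0.183% lower. Most estimates were positive: 31 of 34 (91.2%, against 51.7% of all tested genes), with a median log2 fold change of 0.26 against 0.01 over all tested genes. In 10 members, or 29.4%, all AdKO libraries lay above all WT libraries, where 7.63% of all tested genes did so, and in 0 members did all AdKO libraries lie below, where 10.8% of all tested genes did. With no filter on low counts edgeR called 4 members higher, where it called 0.348% of all genes higher and 2.45% lower. With muscle marker share in the model, 24 of 34 estimates were positive, with a median of 0.44, and 0 were called, against 0.0203% of all tested genes higher and 0% lower; leaving out 1 library at a time, 28 to 33 were positive. Because the members share their precursor RNAs, their estimates are not independent.

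**Figure D3:**
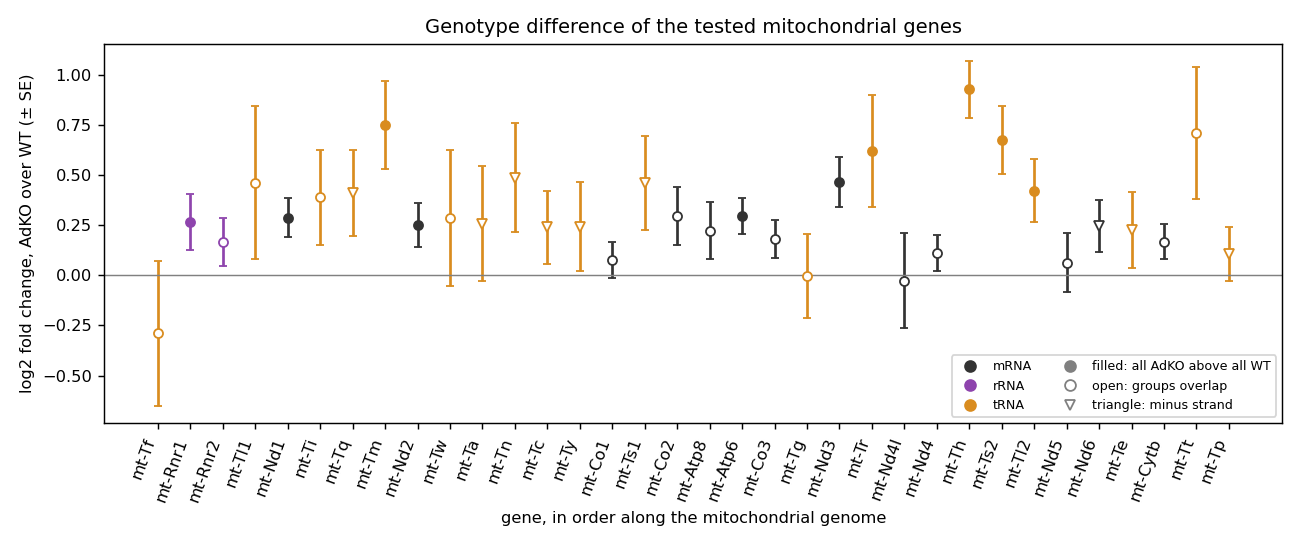
log2 fold change (AdKO over WT, ± SE) of the 34 tested members in genome order; colours mark the class of RNA, and filled points mark members whose AdKO libraries all lie above all WT libraries. Of the 34 estimates, 31 are above 0, and the highest is mt-Th at 0.93.

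Among complex I subunits, mt-Nd3 stood out. It had 3994, 3839 and 4265 CPM in the AdKO libraries and 2494, 3270 and 3001 CPM in the WT libraries, and every AdKO value was above every WT value (log2 fold change 0.47 ± 0.12 SE, edgeR adjusted p = 0.244). The first WT library was lowest, and there Gm28438 was given 41.2% of the summed counts. With that copy added, the groups just overlapped (log2 fold change 0.42, edgeR adjusted p = 0.323). The lowest AdKO library was then at 4242 CPM and the highest WT library at 4244 CPM. mt-Nd1 had 21416, 18032 and 20201 CPM in AdKO and 17727, 16131 and 15013 CPM in WT, also without overlap (log2 fold change 0.29, adjusted p = 0.363). mt-Nd2 had 16738, 16288 and 18189 CPM in AdKO and 16244, 14312 and 12448 CPM in WT, where the highest WT library came close to the lowest AdKO one (log2 fold change 0.25, adjusted p = 0.479). mt-Nd4l was the only mRNA with a negative estimate, at 1643, 2906 and 3101 CPM in AdKO and 2911, 2726 and 2149 CPM in WT (log2 fold change -0.03). The log2 fold changes of mt-Nd4, mt-Nd5 and mt-Nd6 were 0.11, 0.06 and 0.25, and their groups overlapped. With the muscle covariate mt-Nd3 was at 0.28, mt-Nd1 at 0.66, mt-Nd2 at 0.43 and mt-Nd4l at -1.04, and mt-Nd5 turned negative, at -0.35.

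Of the other mRNAs as deposited, without copies added, mt-Atp6, the proton channel subunit of ATP synthase, was the 1 whose groups did not overlap. It had 28599, 24820 and 27533 CPM in the AdKO libraries and 23363, 22304 and 20214 CPM in the WT libraries (log2 fold change 0.30 ± 0.09 SE, adjusted p = 0.302). Estimates for mt-Atp8, mt-Co1, mt-Co3 and mt-Cytb were 0.22, 0.07, 0.18 and 0.17 on the log2 scale, all with overlap. mt-Rnr1 had 8910, 6500 and 6688 CPM in AdKO and 6481, 6355 and 5526 CPM in WT, and the highest WT library lay just below the lowest AdKO one (log2 fold change 0.27, adjusted p = 0.561). That estimate was 0.11 without the first AdKO library and 1.02 with the muscle covariate. With the covariate mt-Atp6 was at 0.60, and mt-Atp8 and mt-Co1 turned negative, at -0.19 and -0.03. The mt-Rnr2 estimate was 0.17, and its groups overlapped.

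The first AdKO library stood apart from the other libraries in how its mRNAs were balanced. The SD over the 13 mRNAs of their log2 ratio to the WT mean was 0.32 in that library, against 0.109 and 0.113 in the other AdKO libraries and 0.0771 to 0.130 in the WT libraries. The ratio was lowest for mt-Nd4l at -0.66 and highest for mt-Nd3 at 0.45. With the copies added, the SD was 0.336 in that library and 0.0547 to 0.0895 in the other 5. The same library held the highest Gm29216 count of all, the highest muscle marker share of its group and the ratios of mt-Atp8 to mt-Atp6 and mt-Nd4l to mt-Nd4 that lay lowest. Without it, edgeR called 2 members higher, mt-Th (log2 fold change 0.91, adjusted p = 0.00334) and mt-Tm (0.87, adjusted p = 0.0407), and over all genes it called 45 higher (0.296%) and 812 lower (5.35%).

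**Figure D4:**
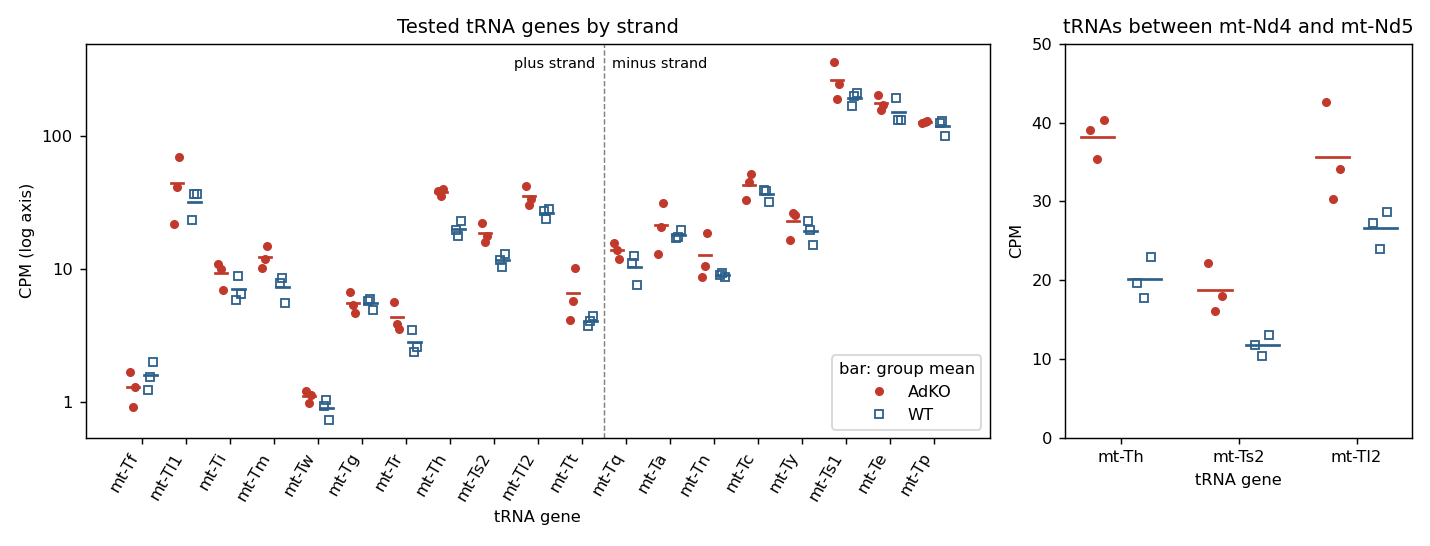
Left, CPM (log axis) of the tRNAs by gene, AdKO left of WT, with libraries as points; right, CPM of the 3 tRNAs between mt-Nd4 and mt-Nd5 on a linear axis. For mt-Th the AdKO points lie between 35.3 and 40.3 CPM, all above the WT points, which lie between 17.7 and 23.0 CPM.

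The tRNAs, short RNAs that mostly lack the tails a poly(A) library selects, were measured at low counts: the 22 together held 9789 to 15107 counts per library. The 8 tRNAs on the minus strand had a median summed count of 2965 over all 6 libraries, and the 14 on the plus strand 527, and the minus-strand tRNAs held 82.4%, 78.5% and 77.0% of tRNA counts in the AdKO libraries and 84.1%, 82.2% and 80.4% in the WT libraries. Whether counting used strand is not known, and without it reads from the abundant plus-strand RNAs opposite these genes, and opposite mt-Nd6, cannot be told apart from their own. mt-Ts1 (serine), on the minus strand, was highest with 364, 190 and 247 CPM in AdKO and 168, 203 and 211 CPM in WT. Of the 19 tested tRNAs, 17 had a positive estimate, with a median log2 fold change of 0.41. Their counts are reads that overlap these genes, and whether they come from mature tRNA or from longer precursors was not tested.

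The 3 tRNAs shown above, between mt-Nd4 and mt-Nd5, were higher in every AdKO library than in every WT library. mt-Th had 39.1, 35.3 and 40.3 CPM in the AdKO libraries and 19.7, 17.7 and 23.0 CPM in the WT libraries (log2 fold change 0.93 ± 0.14 SE, edgeR adjusted p = 0.0919). mt-Ts2 had 22.13, 16.04 and 17.94 CPM in AdKO and 11.78, 10.37 and 13 CPM in WT (log2 fold change 0.67 ± 0.17 SE, adjusted p = 0.226). mt-Tl2 had 42.6, 30.3 and 34.1 CPM in AdKO and 27.3, 24.0 and 28.6 CPM in WT, where the groups came closest (log2 fold change 0.42, adjusted p = 0.407). These 3 were picked after their values were seen, so their sum was bound to separate the groups and adds no support. That sum was 103.8, 81.7 and 92.4 CPM in AdKO and 58.7, 52.0 and 64.6 CPM in WT, 1.59 times as high in AdKO. The mRNAs on either side, mt-Nd4 and mt-Nd5, had log2 fold changes of 0.11 and 0.06. With the muscle covariate mt-Th, mt-Ts2 and mt-Tl2 were at 0.82, 1.09 and 0.91, and without the first AdKO library at 0.91, 0.54 and 0.28. At adjusted p under 0.1, mt-Th was the 1 member called, where 0.312% of all tested genes were.

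Other tRNAs that did not overlap were rarer. mt-Tm, for methionine, had 10.22, 11.86 and 14.97 CPM in AdKO and 7.89, 8.54 and 5.56 CPM in WT (log2 fold change 0.75, edgeR adjusted p = 0.291). mt-Tr, for arginine, had 5.69, 3.85 and 3.56 CPM in AdKO and 3.48, 2.41 and 2.61 CPM in WT (log2 fold change 0.62, and 1.73 with the muscle covariate). The 8 minus-strand tRNAs had positive estimates in all cases, at log2 fold changes of 0.11 to 0.49, and the groups overlapped for each of them. With the muscle covariate 4 of these 8 turned negative, mt-Ta at -1.40, mt-Tn at -0.63, mt-Tc at -0.40 and mt-Ty at -0.30, and leaving out 1 library turned mt-Ta and mt-Tp negative, at -0.108 and -0.032. Of the 11 tested plus-strand tRNAs, 9 were positive with a median of 0.46; mt-Tf, for phenylalanine, was lowest at -0.29 with 1.69, 0.913 and 1.31 CPM in AdKO and 1.24, 1.55 and 2.01 CPM in WT, and mt-Tg, for glycine, was at -0.003. mt-Tl1 (leucine) varied most within AdKO, relative to its mean, among the tested tRNAs, with 21.9, 41.5 and 70.1 CPM in AdKO and 23.3, 37.0 and 36.7 CPM in WT.

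Nuclear genes that maintain and express the mitochondrial genome were listed by function and read beside all tested genes, of which 51.7% had a positive estimate; none of them was called. The 11 transcription genes, which copy mitochondrial DNA into RNA, were all positive with a median log2 fold change of 0.12, and none had groups without overlap. Polrmt and Tfb2m turned negative with the muscle covariate (-0.123 and -0.117), and leaving out 1 library took Polrmt, Tefm and Mrpl12 to as low as -0.076, -0.069 and -0.001. Among them, Tfam, which packages and helps transcribe the genome, had 35.1, 34.8 and 43.4 CPM in AdKO and 37.0, 32.3 and 31.6 CPM in WT (log2 fold change 0.17), and the RNA polymerase Polrmt and the factors Tfb2m and Tefm had estimates of 0.04, 0.12 and 0.06. Mrpl12, a ribosomal protein that also binds the polymerase, had 0.28. Of 32 RNA processing and decay genes, 30 were positive with a median of 0.12 and 6 lay above WT in every AdKO library, Trmt10c and Ptcd1 among them, against 7.63% of all tested genes. The mRNA-binding protein Lrpprc had 0.03, its partner Slirp 0.26, the poly(A) polymerase Mtpap 0.13, the tRNA end-cutting enzyme Elac2 0.09, Trmt10c, part of the nuclease that cuts tRNA starts, 0.11, Fastk 0.18, Ptcd1 0.20 and Mrm1, an rRNA methyltransferase, 0.32. The 16 replication and nucleoid genes were balanced, 8 positive and 8 negative with a median of 0.00: the helicase Twnk had 0.13, the polymerase Polg -0.05, the nuclease Mgme1 0.28 (edgeR adjusted p = 0.510) and Dguok, which salvages nucleotides, 0.21. Of these 16, 3 lay above WT in every AdKO library, Mgme1 and Dguok among them, against 7.63% of all tested genes.

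Nuclear subunits of the same respiratory complexes mostly had positive estimates. For complex I, 36 of 36 estimates were positive (median log2 fold change 0.32, 11 without overlap), for complex III 9 of 9 (median 0.35, 4 without overlap), for complex IV 13 of 13 (median 0.41, 5 without overlap), and for complex V 12 of 14 tested (median 0.26, 3 without overlap); 7.63% of all tested genes lay above WT in every AdKO library. None was called. The members with the smallest p in each list were Ndufab1 (0.32) and Ndufc2 (0.42) of complex I, Cyc1 (0.39) and Uqcrfs1 (0.38, adjusted p = 0.364) of complex III, Cox7c (0.41) and Cox8a (0.46) of complex IV, and Atp5b (0.26) and Atp5l (0.36) of ATP synthase. Without the first AdKO library Ndufc2, Cyc1, Cox7c, Cox8a and Atp5l had smaller estimates, at 0.26, 0.25, 0.21, 0.25 and 0.23. With the muscle covariate they had larger ones, at 0.95, 0.83, 1.17, 1.07 and 0.98. The first AdKO library was the highest AdKO library for every nuclear subunit of complexes I, III and IV except Ndufs1 and Uqcrc2. The positive estimate of Ndufa1 rested on that library, with 187.0, 100.9 and 119.4 CPM in AdKO and 102.8, 116.2 and 130.7 CPM in WT. Ndufa1 was not alone in this, as 2 further genes picked after their values were seen show. Ndufa13 had 204.8, 103.6 and 117.5 CPM in AdKO and 99.8, 118.9 and 122.8 CPM in WT. Atp5k, of complex V, had 183.5, 95.1 and 105.1 CPM in AdKO and 105.1, 109.9 and 107.5 CPM in WT. The 11 complex I subunits without overlap lay above WT in the other AdKO libraries too. How many of the counted estimates stay positive without the first AdKO library was not tested. The estimate farthest from 0 among the nuclear subunits of ATP synthase was negative: Atp5g1, a c-ring subunit gene picked here after its values were seen, had 37.6, 4.69 and 4.99 CPM in AdKO and 53.4, 46.1 and 35.7 CPM in WT, where the first AdKO library lay within the WT range (log2 fold change -1.52, edgeR adjusted p = 0.522).

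The balance of mitochondrial to nuclear subunits, as the log2 ratio of summed per-base levels, did not separate the genotypes. Each nuclear length was that of the gene's longest annotated coding transcript. The sums also covered unequal numbers of genes, 7 mitochondrial against 36 nuclear for complex I. The ratios therefore compare libraries and do not give relative amounts of subunits. For complex I it was 3.04, 3.63 and 3.62 in the AdKO libraries and 3.66, 3.51 and 3.33 in the WT libraries. For complex III it was 1.86, 2.24 and 2.21 in AdKO and 2.30, 2.34 and 2.11 in WT. For complex IV it was 2.56, 3.16 and 3.15 in AdKO and 3.23, 3.27 and 2.99 in WT, and for complex V 3.04, 3.49 and 3.54 in AdKO and 3.49, 3.35 and 3.18 in WT. The first AdKO library was lowest of all 6 in each complex, and the groups overlapped (exact permutation p from 0.4 to 0.8, unadjusted).

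**Figure D5:**
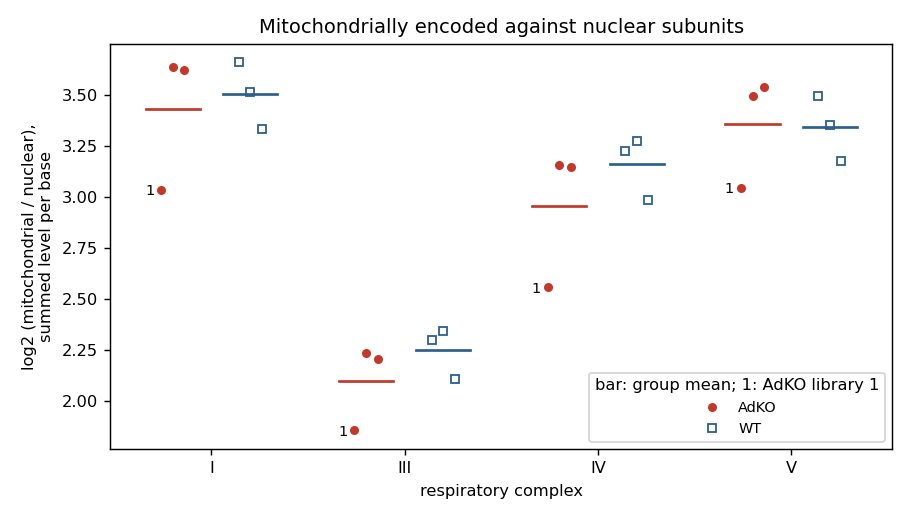
log2 of mitochondrially encoded over nuclear subunit level per base, by respiratory complex, with libraries as points, AdKO left of WT. In each complex the lowest of the 6 points is an AdKO library, at 1.86 to 3.04. The other points overlap between genotypes in complexes I, III and IV. In complex V the other AdKO points, at 3.494 and 3.535, lie just above the highest WT point, at 3.492.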

How the data were processed

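Paired-end poly(A) RNA libraries were made with a NEBNext Ultra II kit after TRIzol extraction, per the labels' protocols. The authors deposited unnormalized estimated counts, many of them fractional, for each gene. StringTie, Salmon, edgeR and the build GRCm38 are named per the submitters' processing notes. Versions, settings, annotation release and strand use were not given in the sources used here. How reads were shared between near-identical sequences bears directly on mt-Co2 and the other genes with nuclear copies. Symbols, positions and sequences came from GENCODE vM21 on GRCm38 (54131 of 54385 identifiers matched), nuclear copies from blastn 2.17.0.

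Estimated counts were rounded. Genes passing filterByExpr (minimum count 10, total 15) were tested in edgeR 4.0.16 (R 4.3.3; quasi-likelihood F test, TMM, two-sided, Benjamini-Hochberg over 14767 genes); CPM used TMM-scaled library sizes, and the common biological coefficient of variation was 25.2%. 3 counts equal 0.172 to 0.203 CPM. The edgeR fit was checked on simulated counts with less spread than these data and larger changes than the members had. That check does not show power for small changes. Shares, ratios and balances were compared by exact permutation (scipy 1.17.1). Named genes were the 13 mRNAs, both rRNAs, every tested tRNA, 12 nuclear genes, the 2 members per nuclear list with the smallest p, and every nuclear copy with at least 100 counts. The members and lists were chosen with earlier results of these data known. Alternatives were DESeq2 1.42.0, limma 3.58.1 voom, other scalings and filters, a muscle covariate, a replicate block and leaving out each library. Same-numbered libraries were not paired in the main fit (correlations in the closing part), and no library was a copy of another of its group in a chi-square test.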

Additional observations from a re-analysis of the deposited data

How the results depend on the processing

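No member was called by edgeR (0 higher, 0 lower) under the other scalings, the stricter filter, unrounded values, the muscle covariate, the replicate block or the added copies, and none by limma-voom. edgeR called 4 higher with no low-count filter (mt-Tm, mt-Nd3, mt-Th and mt-Ts2), DESeq2 called 3, and 1 was called at adjusted p under 0.1; leaving out 1 library gave 0 to 2. Over all genes, 4 higher and 5 lower became 111 and 782 with no filter, 31 and 276 by DESeq2, 6 and 27 by limma-voom, 7 and 39 at adjusted p under 0.1, 45 and 812 without the first AdKO library, 3 and 0 with the muscle covariate and 2 and 2 with the replicate block. Replicate numbers shared between genotypes correlated at 0.0739, 0.107 and 0.0531, and numbers not shared at -0.0632 to -0.0093. Each library thus correlated best with its own number, a hint from the data. The labels only number the replicates, so the main fit did not pair them, and whether they share a batch is not known. The cause of the changes in calls was not tested.

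Of 1062 gene results under alternatives, 1014 kept direction and call, 39 reversed and 9 became called. Muscle share separated the genotypes, and the estimates that turned direction with that covariate had larger SEs than without it. With the muscle covariate 17 turned direction, at log2 fold changes of -0.123 (Polrmt), -0.429 (Elac2), -0.293 (Lrpprc), -0.255 (Twnk), -0.117 (Tfb2m), -0.074 (Ptcd1), 0.052 (mt-Tf), -1.993 (mt-Tl1), -1.399 (mt-Ta), -0.629 (mt-Tn), -0.397 (mt-Tc), -0.302 (mt-Ty), -0.030 (mt-Co1), -0.187 (mt-Atp8), 0.738 (mt-Tg), -0.352 (mt-Nd5) and -0.895 (mt-Tt); 24 of 34 members were then positive. mt-Tg was 0.007 with no filter. Leaving out 1 library gave -0.076 to 0.09 (Polrmt), -0.005 to 0.208 (Elac2), -0.061 to 0.118 (Lrpprc), -0.12 to 0.042 (Polg), -0.001 to 0.426 (Mrpl12), -0.069 to 0.201 (Tefm), -0.027 to 0.79 (mt-Tl1), -0.108 to 0.523 (mt-Ta), -0.023 to 0.124 (mt-Co1), -0.155 to 0.109 (mt-Tg), -0.057 to 0.194 (mt-Nd5), -0.032 to 0.151 (mt-Tp) and -0.189 to 0.212 (mt-Nd4l). Differences (AdKO minus WT) ranged, leaving out 1 library, from -0.478 to 0.592 percentage points for the rRNA share, -0.0429 to 0.1995 for mt-Nd6, -0.3695 to 1.058 for complex I and -0.256 to 0.0482 for complex III, from -0.0163 to 0.0409 for the mt-Rnr1 to mt-Rnr2 ratio, -0.106 to 0.0695 for mt-Atp8 to mt-Atp6, -0.112 to 0.0412 for mt-Nd4l to mt-Nd4 and -0.0042 to 0.0865 for mt-Co3 to mt-Co1, and from -0.173 to 0.126 and -0.0704 to 0.175 for the log2 balance of complexes I and V. The rRNA share difference was -0.0924 with copies added, the complex I balance 0.0227 with medians, and the complex V balance -0.00464 with effective lengths. Depth limits mt-Tv, mt-Td and mt-Tk, which were too low to test.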
